A study of Mus musculus with 13 samples.

Results

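The 9 genes described here belong to thyroid hormone handling and response in mouse liver. They are the deiodinase gene Dio1, the receptor genes Thra and Thrb, the response genes Thrsp, Me1 and Klf9, the transporter gene Slc16a10 and the serum carrier genes Ttr and Serpina7. All 9 are among the 11779 genes listed in the deposited liver table, and each was taken by its symbol. The genes were chosen by name around Dio1, with the authors' comparison of the liver groups known. That comparison is not used here, so the text makes no statement on whether any of the genes differed between the groups.

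Liver RNA came from Balb/c mice on day 5 after injection of antisense oligonucleotides (ASOs, short modified DNA strands that direct the cutting of a matching RNA). In the Liver LL35 ASO group, 3 mice received a mix of GalNAc-conjugated ASOs against the long non-coding RNA LL35, also named Falcor. The labels give a mix of 5 ASOs at 150 mg/kg for each, and the sources differ on both points, as set out under processing. In the Liver Luc ASO group, 3 mice received a single GalNAc-conjugated ASO, not a mix, against firefly luciferase, a gene that mice do not have. The labels as read here give no dose for this control. The ASOs of both groups carried GalNAc, a sugar bound by the asialoglycoprotein receptor of hepatocytes, and no untreated liver is among these samples. The 7 AML12 hepatocyte libraries of the series were not analysed here. The table gives a single value of level per gene, the authors' mean normalized count over the compared liver libraries, so it holds no spread between mice and no depth per library. This mean pools both groups, so for a gene that differed between them it is the level of neither group. Whole liver was sequenced, so few cells with much of an RNA and many cells with little of it cannot be told apart.

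Thyroid hormone leaves the thyroid mainly as thyroxine (T4), a prohormone that deiodinases turn into the active triiodothyronine (T3) by removing an iodine. In blood it travels bound to carrier proteins, and it enters cells through membrane transporters. Inside the nucleus, T3 binds the receptors encoded by Thra and Thrb, which sit on DNA with retinoid X receptors and exchange corepressors for coactivators when the hormone is bound. The liver is known for its deiodinase activity, for secreting the carriers, and for T3-responsive genes of fat synthesis.

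A pair of short sequences shows features of the genes that carry the account below. The first is the selenocysteine codon of Dio1, shown because the enzyme's active site holds this selenium-containing amino acid and because the codon places Dio1 among the selenoprotein genes compared with it. The codon, in capitals, is a TGA triplet that elsewhere ends translation. It is codon 126 of the 257 codons of the annotated full-length transcript in GENCODE M21, lies in a coding exon at chr4:107297700-107297702 on the minus strand (GRCm38), and is the only stop triplet in frame before the end of the coding part. The second is from a promoter of Thrb with the hexamer AGGTCA in capitals, the half-site that thyroid hormone receptors and other nuclear receptors bind. It is shown because Thrb was the only one of the 7 genes with a promoter in the RefSeq table (GRCm38.p6) whose promoter held the hexamer. The start of transcription named with it is that of the RefSeq promoter at chr14:17660710-17661009. GENCODE M21 starts Thrb upstream of it, at chr14:17660261, so by that annotation the stretch lies within the gene. The other Thrb promoter, at chr14:17981394-17981693, held 0 copies.
Dio1, selenocysteine codon, chr4:107297688-107297714, minus strand: ggcagttgcaccTGAccttcatttctt
Thrb, half-site 184 bases before the start of transcription, chr14:17660764-17660793, plus strand: aggagagttgacAGGTCAagggaatagggc

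Across the 10 promoters of these 7 genes, each of 300 bases from 250 before to 50 after the start, 1 held AGGTCA on either strand. The hexamer was present in 16.3% of the 32851 promoters in the table. A direct repeat, with 2 copies of AGGTCA in the same orientation and any 4 bases between them, was in 0 of the 10 promoters and in 0.0152% of all. Since the exact repeat was that rare, its absence from the 10 promoters says nothing about these genes. Inexact copies and sites outside the 300 bases were not searched. The letters alone are a description of these windows and say nothing of binding. The promoters also differed in CG dinucleotides, whose median over all promoters was 7. Serpina7 had 0 in both of its promoters, Dio1 had 3 and Thrsp had 4, whereas Slc16a10 had 26 and Klf9 had 28. The Serpina7 promoters (chrX:139085187-139085486 and chrX:139085170-139085469) overlap over most of their length, so the 10 promoters are not all separate sequences. Me1 had a promoter with 35 and another with 4, and Thrb likewise had a promoter with 37 and another with 4.

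The liver identity of the samples was checked with marker genes. All 8 hepatocyte markers were listed, with mean normalized counts from 2503 (Asgr2) to 1217472 (Alb), and Alb alone took 10.8% of the mean normalized counts summed over all listed genes. The 5 Kupffer cell markers summed to 4076, the 5 endothelial markers to 4503 and the 5 stellate cell markers to 3740. Of the cholangiocyte markers 2 of 5 were listed, without the defining genes Krt19, Krt7 and Epcam, of the T and B cell markers 1 of 5, and of the erythroid markers 3 of 5. The knockdown itself was not checked here, since no analysed row carries the symbol 9030622O22Rik of the LL35 gene. Other names of that gene were not searched. The paper measured the knockdown in liver by RT-qPCR.

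Of the 9 genes, 8 had a level above the median listed gene when the mean was divided by the length of all annotated exons, and 5 lay above the 90th percentile. Both counts depended on the length used. Serpina7 fell below the median listed gene, leaving 7, with the longest coding length and with means not divided by length. Above the 90th percentile were 4 genes with the longest transcript or the longest coding length, 3 with undivided means and 2, Slc16a10 and Ttr, with the shortest transcript. Dio1 was above it with the exon length alone. Levels are given below as mean normalized counts per kilobase of exon in GENCODE M21, a length found for 11754 of the listed genes. The table starts at a mean normalized count of 15.6, so percentiles are among listed genes and not among all genes. The median listed gene stood at 51.5 per kilobase, and the median of the 9 genes was 363 per kilobase, at percentile 90.6. The genes lie on 9 different chromosomes, and their exons cover from 1186 to 7403 bases. Together they took 0.327% of the summed means, of which Ttr alone made up 0.249%. From Thra at the bottom to Ttr at the top the level per kilobase spanned 879-fold, and from Thra to Thrsp, which was next after Ttr, 21.4-fold. No error can be attached to these ratios, so the order of close neighbours is not established.

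**Figure D1:**
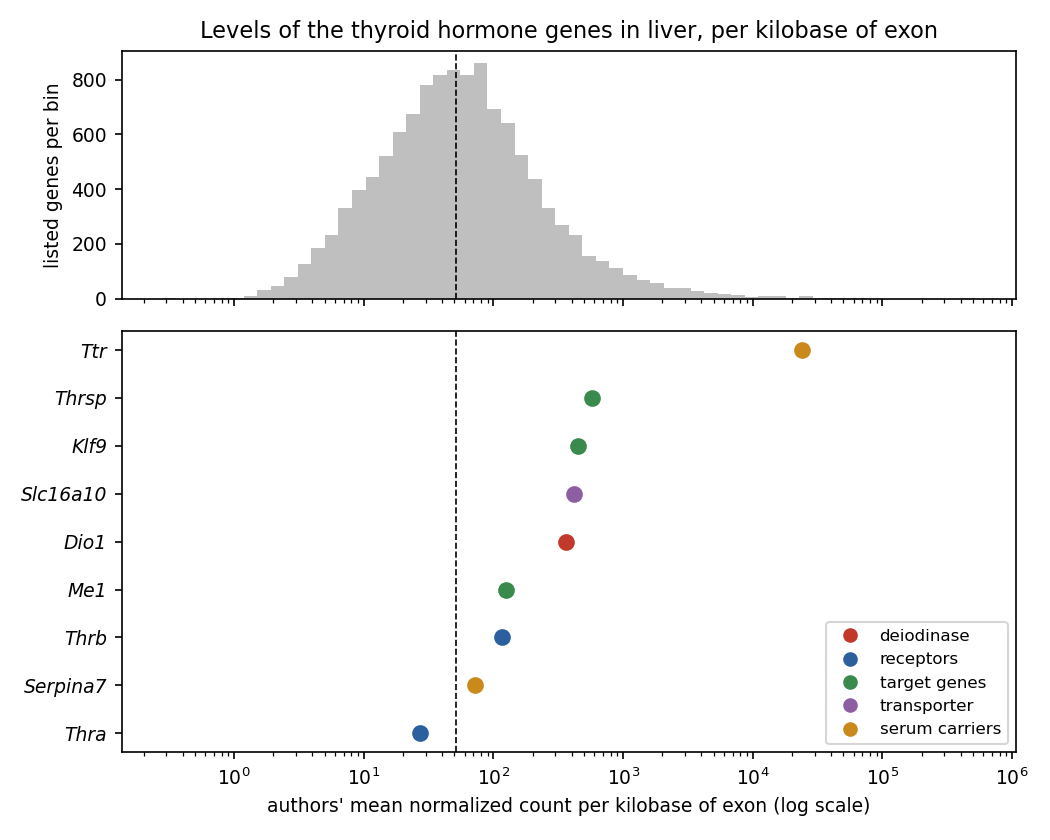
Upper panel, number of listed liver genes in bins of the authors' mean normalized count per kilobase of exon (horizontal log axis), and lower panel, the value of each of the 9 genes on the same axis, coloured by role, with a dashed line at the median listed gene (51.5). Thra (27.0) lies left of the line, the other 8 genes lie right of it, and Ttr (23757) stands far from the rest.

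Dio1 (ENSMUSG00000034785, chr4:107291465-107307169, minus strand) encodes type 1 deiodinase, the main hepatic enzyme that converts T4 to T3 and also clears inactive iodothyronines. Its mean normalized count was 715, or 363 per kilobase of exon, the 5th highest level of the 9 genes. It was 3.14 times that of Thrb and 2.91 times that of Me1 per kilobase. Dio2 and Dio3, which encode the deiodinases best known from brain and fat and from placenta, were not among the rows analysed here. Of the 3 deiodinase genes, the table thus gives a level for Dio1 alone.

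Deiodinases share selenocysteine with a small set of other enzymes, and Dio1 was set beside them. Of the 24 genes with a selenocysteine annotated in GENCODE M21, 19 were listed, and Dio1 ranked 7th of these 19 per kilobase. That rank depended on the length. By undivided means, Txnrd1 (2349), Selenoi (1137) and Selenof (1000) moved above Dio1 (715), and Selenow (346) moved below it. The 363 per kilobase of Dio1 stood next to the 363 of Gpx4, which encodes a peroxidase that protects membrane lipids. The order of Dio1 and Gpx4 is not established. Above Dio1 per kilobase stood Selenop, the selenium transport protein that the liver secretes, at 22298, and Gpx1, the main cytosolic glutathione peroxidase, at 5183. Txnrd1, the cytosolic thioredoxin reductase, was at 332 per kilobase, and Msrb1, which repairs oxidized methionine, was at 1964. The lowest were Selenon at 8.50, Selenoh at 15.9, Txnrd3 at 20.2 and the plasma peroxidase gene Gpx3 at 38.8. In the list of 17 other selenoprotein genes, 16 were listed with a median of 258 per kilobase, below the 363 of Dio1. Sephs2 encodes the enzyme that supplies active selenium and is a selenoprotein itself. It had 3627 per kilobase, the highest of the 6 genes for selenoprotein synthesis. The other 5 were Sepsecs at 162, the elongation factor gene Eefsec at 96.3, Secisbp2 at 81.3, Trnau1ap at 39.9 and the kinase gene Pstk at 7.69 per kilobase.

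The receptor genes differed in level. Thrb (ENSMUSG00000021779, chr14:17660261-18038090, plus strand), which encodes the receptor known to predominate in hepatocytes, had a mean normalized count of 856, or 116 per kilobase. Thra (ENSMUSG00000058756, chr11:98740638-98769006, plus strand), the receptor gene best known from heart and bone, had 125, or 27.0 per kilobase. Thrb was thus 4.28 times Thra per kilobase. Each level pools all transcripts of the gene, 9 annotated for Thra and 7 for Thrb. It therefore does not compare single receptor forms. The ratio was 2.71 when each mean was divided by the longest transcript and 7.11 when it was divided by the longest coding length. The exons of Thra share 263 bases, 5.70% of their length, with Nr1d1, a clock receptor gene on the opposite strand whose mean normalized count was 524. The library kit keeps strand, but the strand setting of the counts is not given in the sources used here, so reads from those 263 bases cannot be assigned with certainty.

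Among the dimer partners, Rxra was at 1249 per kilobase, 10.8 times Thrb, whereas Rxrb was at 100.4 and Rxrg at 23.5. The proteins that silence or activate the receptor's targets were encoded by genes at moderate levels. All 5 corepressor genes of the list lay above the median listed gene, from Gps2 at 65.4 per kilobase through Hdac3 at 80.8 and Tbl1x at 95.8 to Tbl1xr1 at 139 and Ncor1 at 198. Their median was 95.8. All 9 coactivator genes lay above it too, with a median of 97.4 per kilobase. The lowest of these were Ncoa1 at 57.3, Ppargc1a at 63.0 and Carm1 at 71.0, and the highest were Kat2b at 222, Crebbp at 132 and Ncoa3 at 120.5. Thrb was within the range of both groups, and Thra was below every gene of both lists.

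Per kilobase of exon, Thrsp and Klf9 stood above both receptor genes, whereas Me1 was close to Thrb. With the shortest transcript as the length, Thrb was above all 3 response genes. Thrsp (ENSMUSG00000035686, chr7:97412938-97417730, minus strand), also known as Spot 14, encodes a small protein that promotes fatty acid synthesis and is a classic T3 target. It had a mean normalized count of 1267, or 579 per kilobase, the highest level after Ttr. Klf9 (ENSMUSG00000033863, chr19:23141226-23168134, plus strand), a zinc finger transcription factor gene induced by T3 and by glucocorticoids, had 2141, or 445 per kilobase. Me1 (ENSMUSG00000032418, chr9:86581371-86695953, minus strand), the cytosolic malic enzyme that makes NADPH for fat synthesis, had 479, or 125 per kilobase. Thrsp was 4.65 times and Klf9 3.57 times Me1 per kilobase. An antisense RNA gene, A330041J22Rik, shares 30 exon bases with Me1 and is not among the rows analysed here.

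In the list of 22 genes named as hepatic targets of thyroid hormone, 21 were listed and 20 of these lay above the median listed gene, with a list median of 295 per kilobase. The exception was Acaca, the first enzyme of fatty acid synthesis, at 49.5, followed upward by Nrip1 at 56.8 and Pdk4 at 84.4. At the top were Apoa1, the main protein of high-density lipoprotein, at 65554 per kilobase, Pck1, a key enzyme of gluconeogenesis, at 14874, and G6pc, which releases free glucose, at 2238. Dio1 belongs to this list as well, and ranked 10th of the 21. Thrsp ranked 7th, Klf9 8th and Me1 17th. Hr, a corepressor gene known as a T3 target in brain, was not among the rows analysed here. Many of these genes are known to answer to insulin, fasting or sterols as well.

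Slc16a10 (ENSMUSG00000019838, chr10:40033532-40142258, minus strand) encodes a transporter of aromatic amino acids that also carries thyroid hormone. Its mean normalized count of 3048 was the second highest of the 9 genes, and its exons, at 7356 bases, were the second longest, so that per kilobase it stood at 414, in place 4. All 9 genes of the transport list were listed, and Slc16a10 ranked 5th, so its level was also the median of the list. The highest were the organic anion transporter gene Slco1b2 at 2987, the bile acid transporter gene Slc10a1 at 2667 and Slco1a1 at 1202 per kilobase. The amino acid transporter genes Slc7a8 and Slc7a5 were lowest, at 13.3 and 25.3, followed by their partner chain gene Slc3a2 at 166.

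The serum carrier genes stood apart from each other. Ttr (ENSMUSG00000061808, chr18:20665280-20674321, plus strand) encodes transthyretin, which carries T4 and, with retinol-binding protein, vitamin A. It had a mean normalized count of 28176, or 23757 per kilobase, at percentile 99.9. Serpina7 (ENSMUSG00000031271, chrX:139079257-139085236, minus strand) encodes thyroxine-binding globulin, a non-inhibitory serpin. It had 177, or 72.4 per kilobase, at percentile 59.9, so Ttr was 328 times higher per kilobase. Albumin binds T4 with low affinity, and Alb stood 21.9 times above Ttr per kilobase. Crym, which encodes a cytosolic T3-binding protein, was not among the rows analysed here. For clearance of the hormone, all 6 listed conjugation genes lay above the median listed gene. The sulfotransferase genes Sult1a1 and Sult1d1 were at 4510 and 1870 per kilobase, Ugt1a1 was at 1483 and Ugt1a9 at 844, while Sult1b1 was at 66.1 and Ugt1a6a at 60.5. The Ugt1a genes share their last exons, so reads from those exons cannot be assigned to a single gene and the Ugt1a levels are uncertain.

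**Figure D2:**
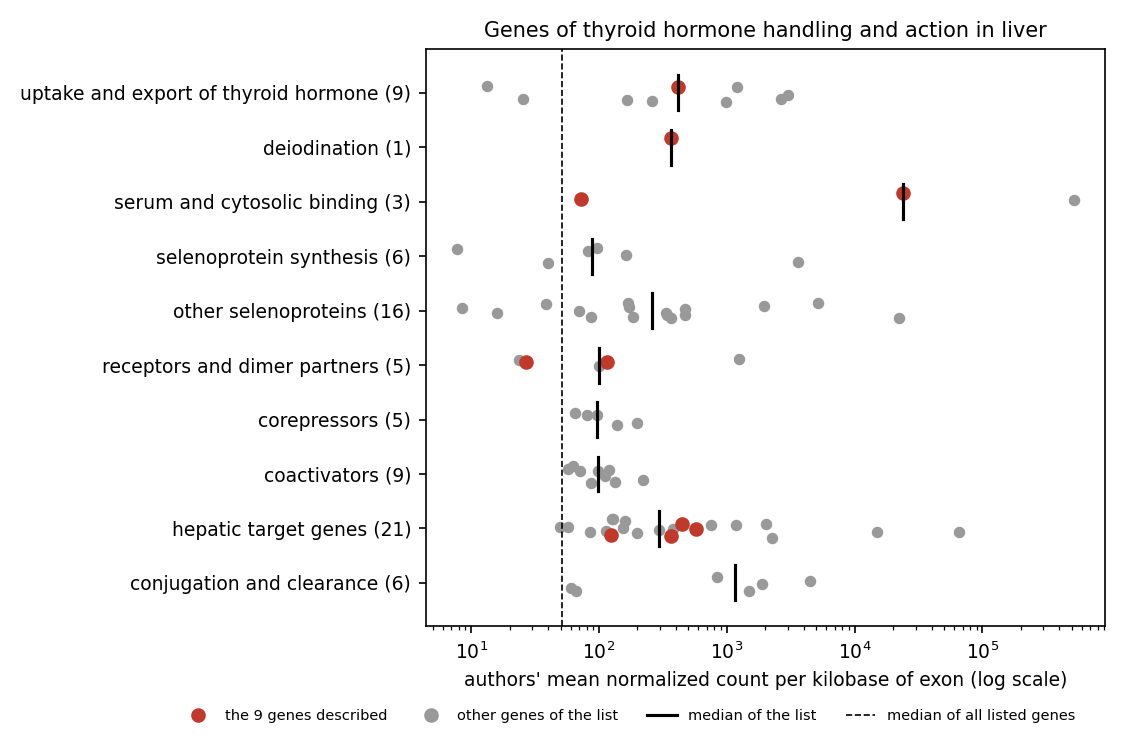
Authors' mean normalized count per kilobase of exon (horizontal log axis) for the listed genes of 10 lists of thyroid hormone handling and action, with the number listed in brackets, the 9 described genes in red, each list's median as a black bar and the median of all listed genes as a dashed line. The corepressor and coactivator genes sit close together, between 57.3 and 222, whereas the transport list spans 224-fold and the target list 1326-fold.

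The length by which a mean is divided set part of this order. Under all 4 lengths tried, Ttr was highest, Serpina7 was 8th and Thra was 9th. Dio1 was 5th under 3 of them and 6th under the shortest transcript, and its percentile among listed genes ranged from 82.7 to 90.6. Thrsp moved from place 2, with the exon length, to 7th with the shortest transcript, and Thrb moved from 7th to 3rd. Me1 stood above Thrb by 1.08 times with the exon length, and below it with the shortest transcript and with the longest coding length.

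**Figure D3:**
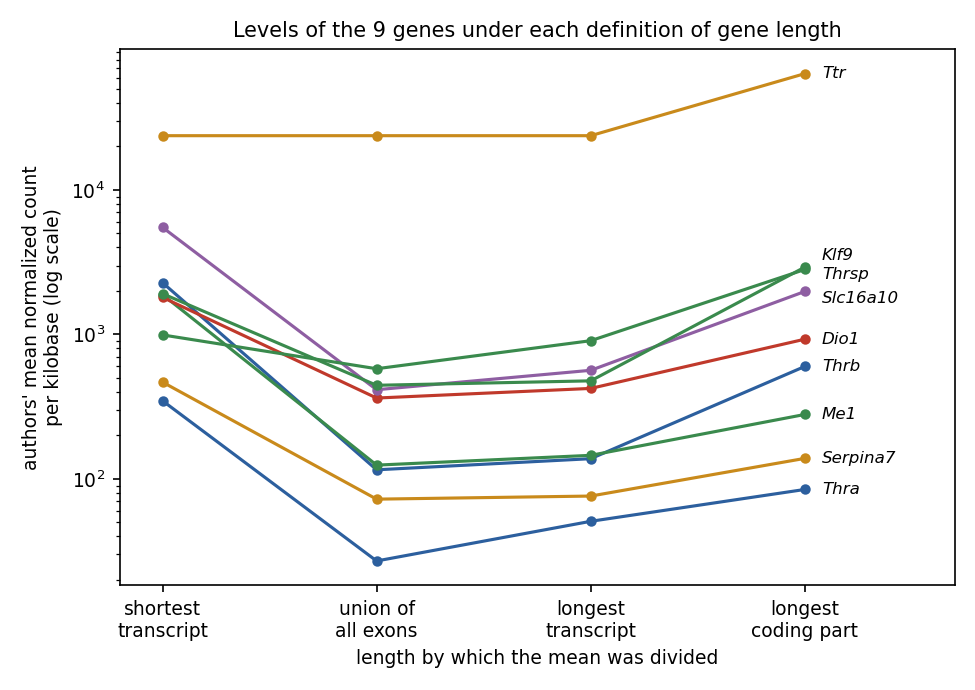
Authors' mean normalized count per kilobase (vertical log axis) of each of the 9 genes when the mean was divided by the shortest transcript, the union of all exons, the longest transcript or the longest coding length. Lines cross among the 6 genes in the middle, and Ttr at the top and Serpina7 and Thra at the bottom keep their places.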

How the data were processed

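RNA-seq libraries were made from total liver RNA of 3 Liver LL35 ASO and 3 Liver Luc ASO mice. Per the labels and the methods, the authors depleted rRNA, prepared directional libraries, aligned reads with STAR 2.5.3a, counted them on Ensembl genes and normalized the counts in DESeq2 by the RLE method. The genome build is not given in the sources used here. The authors' deposited mean normalized count per gene is a signal averaged over the compared liver libraries and not divided by length. Other deposited columns hold the authors' own comparison (fold change, its error, test statistic and p-values) and were not used, so no test was made between groups. Depth per library is unknown.

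The labels give 150 mg/kg for each LL35 ASO, whereas the methods give doses of the whole mix. The supplement's list of LL35 ASOs for animals is shorter than the labels' mix of 5.

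Gene lengths and positions came from GENCODE M21 (GRCm38), matched by Ensembl identifier. Each mean was divided by the gene's exon length in kilobases and ranked among listed genes. Named genes were all 9 genes and, from each list, the 3 highest and 3 lowest, with some others named after their values were seen. The genes and lists were chosen with earlier results of these data known. Alternatives changed the length, the background genes and a minimum mean of 50. The percentile step was tested on simulated means and the exon length step on made-up intervals. The check of the division by length had its outcome set by its own construction, so it tests nothing. Proteins were not analysed, and some genes of the pathway and its families are not reported here. Scripts used Python 3.11.15, numpy 2.4.6, pandas 2.3.3 and matplotlib 3.10.9.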

Additional observations from a re-analysis of the deposited data

How the results depend on the processing

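No paired analysis was possible because the table holds no values of single libraries, and for the same reason no library could be left out. The median level of the 9 genes lay at percentile 90.6 with the exon length. It lay at 83.7 with the shortest transcript, 89.5 with the longest transcript, 87.1 with the longest coding length, 81.9 with means not divided by length, and 88.9 among genes with a mean of at least 50. The number of genes above the 90th percentile, 5 with the exon length, was 2 with the shortest transcript, 3 with undivided means and 4 under each of the other 3 settings. The number above the median listed gene, 8, became 7 with the longest coding length and with undivided means. The ratio of Thrb to Thra per kilobase, 4.28, became 6.57, 2.71, 7.11 and 6.86 with the shortest transcript, the longest transcript, the longest coding length and undivided means, and Thrb was the higher in each. Against genes with a mean of at least 50, all 9 percentiles per kilobase were lower, by up to 11.4 points, because the listed genes with the lowest means were then left out. The largest shift of a single gene was that of Thrsp, from percentile 94.0 to 70.5 with the shortest transcript. The depth of the libraries is unknown, and close levels cannot be ordered without an error.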

Other observations

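Members of the same gene families, picked by symbol after the values above were seen, give a further view of these levels. Slc16a10 had the highest level per kilobase of the 9 Slc16a genes compared, at 414, followed by Slc16a12 at 379, which encodes a creatine transporter. The lactate transporter gene Slc16a1 was at 135. Klf9 was 2nd of the 13 listed Klf genes, at 445 per kilobase, below Klf15, a regulator of amino acid breakdown in fasting, at 774 and above Klf13 at 277.

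Serpina7 was 13th of the 16 listed Serpina genes per kilobase, at 72.4. Serpina6, which encodes corticosteroid-binding globulin, the other hormone carrier of the family, was at 1468, and Serpina3k was highest at 26740. The Serpina1 and Serpina3 genes are close copies of each other, so their own values are uncertain.

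Of 36 listed nuclear receptor genes, Thrb was 17th and Thra 29th per kilobase. Hnf4a, a factor of hepatocyte identity, was highest at 2550, followed by Rxra at 1249 and by Nr1i3, a sensor of foreign compounds, at 1148. The nearest to Thrb were Nr1h2 at 124 and Esrra at 115 per kilobase.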
